A study of Mus musculus with 4 samples.

Results

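Chemokines are small secreted proteins that guide migrating cells, and their receptors are G protein-coupled receptors of the cell surface. The set described here holds 42 genes of this family, 28 ligands and 14 receptors, taken by symbol from the 32285 genes counted in 4 single-cell libraries of mouse mammary tumors. Ccl19 is listed under 2 gene identifiers, and the second held 0 UMIs. The rule is a list of symbols, drawn up with earlier results of these data known. Each library came from 1 mouse and was made with the 10x Genomics 3' v3 kit, which counts unique molecular identifiers (UMIs), each standing for 1 captured RNA molecule, per gene and cell barcode. Replicates 1 and 3 were MMTV-Cre-; Frmd8 fl/fl; PyMT mice (Cre-), and replicates 2 and 4 were MMTV-Cre+; Frmd8 fl/fl; PyMT mice (Cre+), with tumors taken at 17 to 18 weeks. All 4 mice thus carried the floxed Frmd8 alleles and the PyMT transgene, which drives mammary tumors. The MMTV promoter directs Cre to mammary epithelium, so immune and stromal cells of Cre+ mice were not the cells in which the deletion was aimed. Where 4 values follow each other, the Cre- mice come first (replicates 1 and 3) and the Cre+ mice second (replicates 2 and 4). A level is the count of a gene over all cells of a class within a library, scaled to 1000000 UMIs (CPM). In epithelial cells, Frmd8 was counted at 24.4, 24.2, 5.59 and 10.9 CPM, lower in both Cre+ libraries. Over all barcodes kept, it stood at 25.1, 24.7, 11.3 and 12.9 CPM, also lower in both. Of its 2908, 3012, 1219 and 1742 UMIs there, 1980, 1622, 318 and 742 were in epithelial cells. The UMIs outside epithelial cells, ungated barcodes included, also gave a lower level in both Cre+ libraries. Whether Frmd8 differed in any immune or stromal class was not tested. These counts are a limited check, since 3' counts need not read the inner exons that Cre removes.

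CC and CXC ligands are named for the spacing of their first cysteines, and most bind several receptors. Ligands such as Cxcl1, Cxcl2, Cxcl3 and Cxcl5 draw neutrophils through Cxcr2, Ccl2, Ccl7 and Ccl12 draw monocytes through Ccr2, and Cxcl9 and Cxcl10 draw activated T and NK cells through Cxcr3. Cxcl12 binds Cxcr4, which holds cells in place or leads them to stroma. The atypical receptors Ackr1, Ackr2 and Ackr3 bind chemokines without the usual G protein signal and are known to carry or clear them.

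Many of these genes lie side by side. In the gene order of RefSeq for GRCm38.p6, 23 of the 42 genes lay in 6 runs with another of them, where a run allows at most 5 genes from one family gene to the next. The longest ligand run, on chromosome 5, was Cxcl5, Ppbp, Pf4, Cxcl3, Cxcl15, Cxcl1 and Cxcl2, and the receptor run on chromosome 9 included Ccr9, Cxcr6, Xcr1, Ccr1, Ccr3 and Ccr2. Each run held genes with different leading classes. Cxcl5 was led by fibroblasts, Pf4 by macrophages, Cxcl1 by pericytes and Cxcl2 by neutrophils, as the values below show. Of the 32 genes with an entry in the RefSeq promoter table (250 bases before the start to 50 after it), 5 held the letters GGAANTTCC on either strand, a form of the kappaB motif that NF-kappaB is known to bind. The 5 were ligands (Cxcl1, Cxcl2, Cxcl3, Cxcl10 and Ccl12), out of 20 ligands with an entry, and 0.928% of 32851 promoter entries of the same length held these letters. The motif reads the same on both strands apart from its middle base, and it is a match of letters, not a measured site. The neutrophil-drawing ligands Cxcl1, Cxcl2 and Cxcl3 and the T cell-drawing ligand Cxcl10 are shown because their levels are given in detail below, with the motif in capitals, each written 5′ to 3′ on the strand of the gene.
Cxcl1: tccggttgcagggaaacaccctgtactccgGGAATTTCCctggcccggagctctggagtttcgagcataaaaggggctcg
Cxcl2: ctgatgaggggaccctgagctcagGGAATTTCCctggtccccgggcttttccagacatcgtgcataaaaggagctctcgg
Cxcl3: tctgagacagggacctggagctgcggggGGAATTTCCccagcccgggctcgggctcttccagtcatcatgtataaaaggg
Cxcl10: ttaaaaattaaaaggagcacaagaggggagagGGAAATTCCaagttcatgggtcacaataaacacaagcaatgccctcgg
In GRCm38.p6 these stretches lie at chr5:90891145-90891224 for Cxcl1, chr5:90903779-90903858 for Cxcl2, chr5:90786001-90786080 for Cxcl3 (all on the plus strand) and chr5:92349000-92349079 for Cxcl10 (minus strand). The motif starts 70, 96, 72 and 158 bases upstream of the RefSeq start in that order.

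Barcodes with at least 1000 UMIs and at most 20% mitochondrial UMIs were kept, 4922, 5918, 5609 and 7123 of them, with medians of 12455 to 13072.5 UMIs. Cells were placed in 15 classes by scores over 108 marker genes, none of them a gene of the set described here. Of the barcodes of a library, 78.8% to 89.6% received a class. The summed level of the macrophage list was 16430.2 to 19073 CPM in macrophages and 125 to 244 CPM in epithelial cells. The neutrophil list reached 59369 to 110545 CPM in neutrophils, and T cells held 928 to 1994 CPM of the NK list. Pericytes held 7239, 6874, 7669.6 and 13275 CPM of the fibroblast list beside 15396, 13418, 15135 and 7314 CPM of their own, so in Cre+ replicate 4 the fibroblast list was the larger of the 2. Depth differed within classes. Median UMIs were 24984, 24044.5, 14914 and 13322 in epithelial cells, lower in both Cre+ libraries. In T cells they were 6283, 5655.5, 7073 and 11313.5, higher in both. Levels are given for classes with at least 20 cells in a library. That bound left mature dendritic cells (DCs) in Cre- replicate 3 alone (37 cells) and B cells in Cre+ replicate 4 alone (82 cells). Of 23504 different barcodes kept, 68 were kept in more than 1 library. Cre+ replicate 4 was deposited with every barcode, and its 2078989 droplets of 1 to 100 UMIs (4981956 UMIs in all) gave the level of free RNA.

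**Figure D1:**
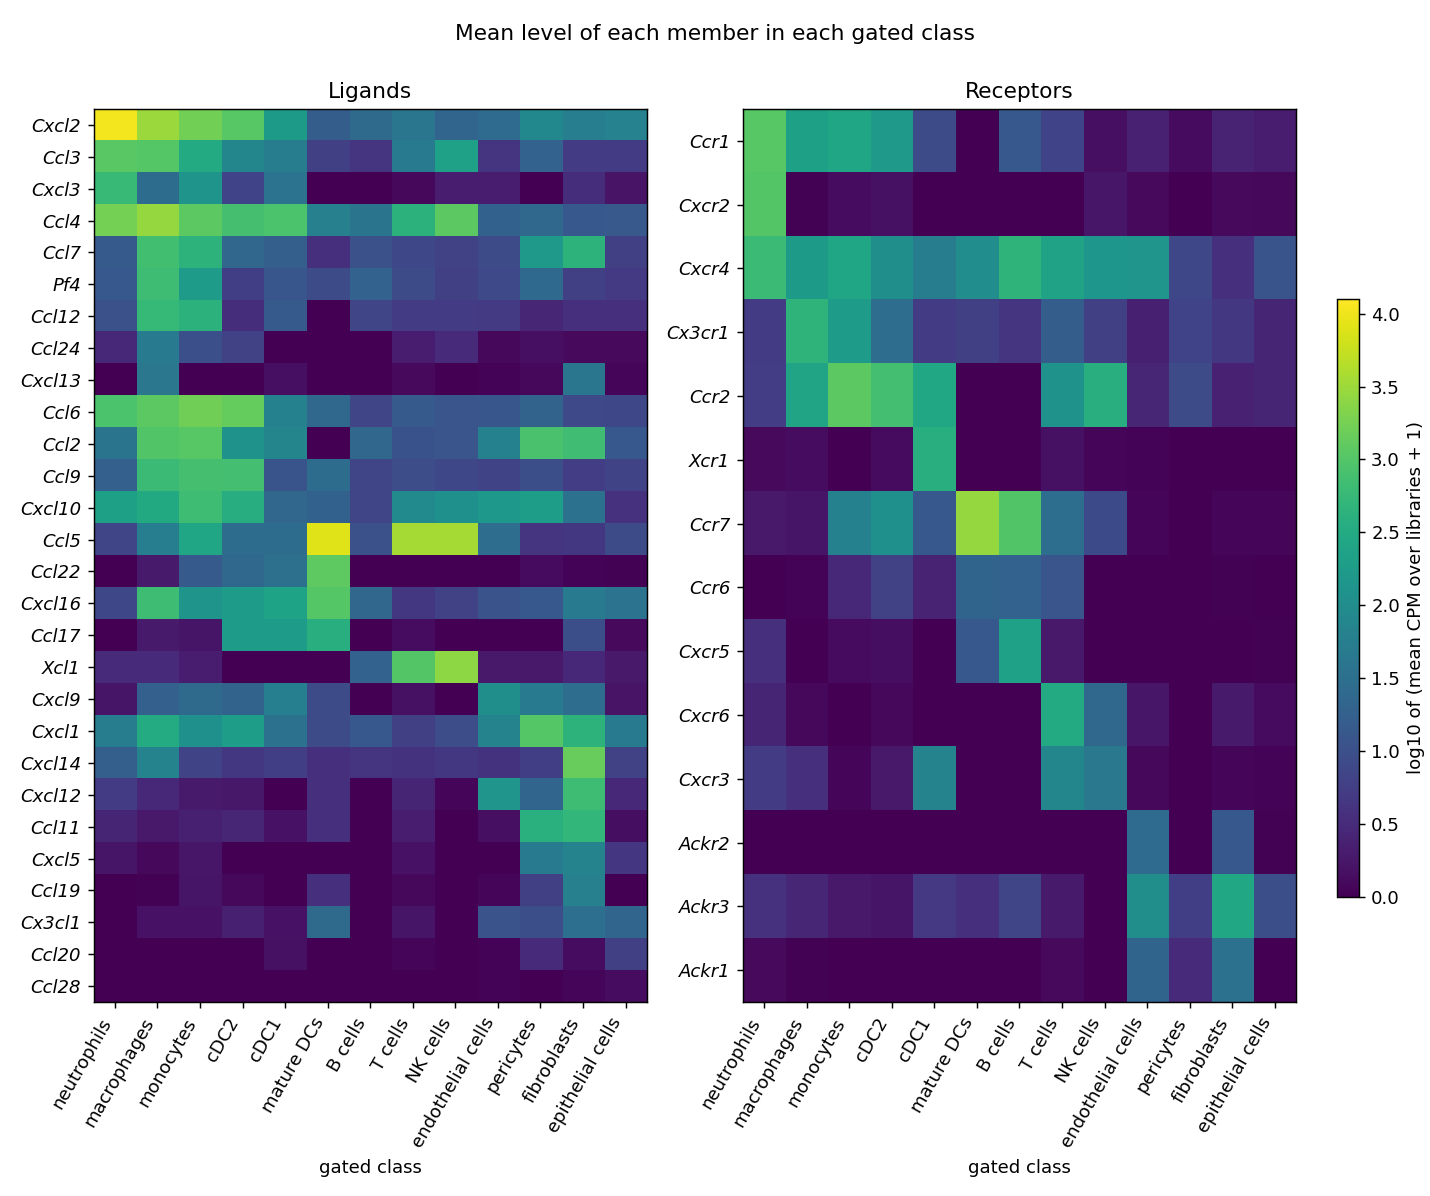
Mean level of the 28 ligands (left) and 14 receptors (right) in 13 gated classes, as log10 of the mean CPM over the libraries with at least 20 cells of the class, plus 1. Rows are ordered by leading class, and the right-hand column of each panel, epithelial cells, is dark for most rows.

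Genes of the set had leading classes among myeloid, lymphoid, stromal and epithelial cells. The map of mean levels has its rows ordered by leading class, so its blocks follow from that order. The range of the leading class over libraries did not overlap that of the class next in mean level for 22 genes. These include genes with mature DCs or B cells as the leading or next class, which have a level in 1 library. A range is then a single value. The same count was not made over all genes. Macrophages led 6 ligands and 1 receptor, fibroblasts 6 ligands and 2 receptors, monocytes 4 ligands and 1 receptor, neutrophils 3 and 3, and mature DCs 4 and 2. Epithelial cells, the largest class with 2250, 1958, 2231 and 2809 cells, led 2 ligands and no receptor. In 29 genes the leading class reached 100 CPM in every library that held it. The other 13 are given by their ranges, and Ackr1, Ackr2, Ccl20 and Cx3cl1 among them per library. The order of classes is a description, since up to 13 classes were ordered for each gene.

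Neutrophils carried the ligands Cxcl2 and Cxcl3 and the receptors Cxcr2 and Ccr1. Cxcl2, a neutrophil-drawing ligand, stood at 7101, 14736, 8718 and 12539.9 CPM in neutrophils and at 2575, 3656, 2806 and 3002 CPM in macrophages. The neutrophil values were the higher in every library, with no overlap. Macrophages were more numerous (1002, 1391, 1586 and 2275 cells against 247, 84, 31 and 70 neutrophils), and they held 76.7% to 90.8% of the gated Cxcl2 UMIs of a library. Cxcl3 of the same subfamily ranged widely in neutrophils, from 45.1 CPM in Cre+ replicate 2 to 1559 CPM in Cre+ replicate 4, a range that spans both Cre- values (335 and 437 CPM). Cxcr2, the receptor for both ligands, stood at 943, 1106, 1113 and 891 CPM in neutrophils and at 0 to 3.02 CPM in NK cells, the next class. Ccr1, a receptor for Ccl3 and Ccl5 among others, stood at 1042, 1049.7, 1098 and 1097 CPM in neutrophils and 227, 222, 168 and 248 CPM in macrophages. The neutrophil values of Ccr1 lay close together in all 4 libraries. Cxcr4 stood at 674, 848, 594 and 356 CPM in neutrophils, lowest in Cre+ replicate 4. Neutrophils held both Cxcl2 and its receptor in all 4 libraries. A list of 10 genes known to respond to tissue dissociation (Fos, Jun, Egr1 and others) summed to 10934 to 15028 CPM in neutrophils and 5916 to 13607 CPM in macrophages, and its part in the level of Cxcl2 was not tested.

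Ccl3 and Ccl4, CC ligands that lie next to each other on chromosome 11, were carried by macrophages and neutrophils alike. Ccl4 stood at 2728, 3105, 3188 and 2183 CPM in macrophages and 1214, 1821, 1369 and 2615 CPM in neutrophils, higher in macrophages in 3 of 4 libraries and lower in Cre+ replicate 4. Ccl3 stood at 513, 1407, 557 and 1955 CPM in neutrophils and 1060.0, 1241, 1158 and 718 CPM in macrophages, with ranges that overlap. NK cells also held Ccl4, at 1084, 1871, 1507 and 241 CPM, lowest in Cre+ replicate 4.

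The test of macrophages against neutrophils covered 25 of the 42 genes (edgeR quasi-likelihood test on the summed counts, Benjamini-Hochberg adjustment over 11240 genes, n = 4 libraries per class). It called 14 higher and 5 lower in macrophages, beside 29.8% of all genes higher and 21.3% lower, and the median log2 fold change was 3.03 over the set and 0.26 over all genes. The ligands Cxcl16 (log2 fold change 6.53, SE 0.34, adjusted p = 2.61e-08), Pf4 (5.97, SE 0.36, adjusted p = 8.24e-08), Ccl7 (5.86, SE 0.29, adjusted p = 1.95e-08) and Ccl2 (4.68, SE 0.28, adjusted p = 7.59e-08) and the receptors Cx3cr1 (6.22, SE 0.39, adjusted p = 1.04e-07) and Ccr2 (4.92, SE 0.68, adjusted p = 8.54e-05) were among those higher in macrophages. The others were Ccl5, Ccl9, Ccl12, Ccl24, Cxcl1, Cxcl9, Cxcl13 and Cxcl14, of which Cxcl13 had no UMI in neutrophils and was at least 21.2-fold higher in macrophages (against 3 counts over the class, with the set's median then 3.03 as before). The genes higher in neutrophils were Cxcr2 (log2 fold change -13.72, SE 0.38, adjusted p = 2.2e-10), Cxcl3 (-4.59, SE 0.75, adjusted p = 0.000304), Ccr1 (-2.37, SE 0.19, adjusted p = 9.9e-07), Cxcl2 (-1.92, SE 0.27, adjusted p = 0.000101) and Cxcr4 (-1.92, SE 0.28, adjusted p = 0.000125). Ccl3, Ccl4, Ccl6, Cxcl10, Cxcl12 and Cxcr3 were not called, with log2 fold changes of -0.21, 0.57, 0.31, 0.43, -0.74 and -0.74. Of 17 genes of receptor signalling tested, 1 was higher in macrophages (Rgs1, which turns off G proteins, 2.66, SE 0.62, adjusted p = 0.00353) and 5 were lower, among them the small GTPase Rac2 (-2.09, SE 0.20, adjusted p = 3.67e-06) and the kinase Grk2 (-1.01, SE 0.17, adjusted p = 0.000398). Among further family genes, Ccl8 was higher in macrophages (5.03) and 4 were lower (Ccl25, Ccr3, Ccrl2 and Cxcr1).

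Macrophages and monocytes shared the ligands of Ccr2 and Ccr1. Ccl7 stood at 811, 746, 522 and 784 CPM in macrophages, above fibroblasts at 487, 382, 442 and 489 CPM without overlap. Monocytes held Ccl7 at 983 CPM in Cre+ replicate 4, above its macrophages, and at 45.1 to 649 CPM in the other libraries. Ccl2 stood at 968, 1108, 629.6 and 1189 CPM in macrophages and at 1674, 279, 342 and 2057 CPM in monocytes, where the 4 mice spread over a wider range than in macrophages. Ccl12 stood at 359, 472, 334 and 1098 CPM in macrophages, highest in Cre+ replicate 4. In monocytes Ccl12 split further, at 714, 13.7, 6.45 and 1001 CPM, high in Cre- replicate 1 and Cre+ replicate 4 and low in the other libraries. The neighbours Ccl6 and Ccl9 are ligands of Ccr1. Ccl6 stood at 1718, 1513, 1764 and 1406 CPM in monocytes and 996, 1320.1, 1843 and 460.2 CPM in macrophages, and Ccl9 at 801, 849, 766 and 669.5 CPM and 602, 741, 866 and 286 CPM. Both were lowest in Cre+ replicate 4 in both classes. Pf4, a platelet factor also made by macrophages, stood at 521, 707, 557 and 902 CPM in macrophages. Cxcl16, the ligand of Cxcr6, varied little, at 668, 654, 649 and 681 CPM in macrophages. Cxcl10 was highest in monocytes in 3 of 4 libraries (736, 495, 120.0 and 1341 CPM), with 129.99, 349, 163 and 569.6 CPM in macrophages. In Cre+ replicate 2 macrophages lay above monocytes, and in both classes Cre+ replicate 4 was highest. Ccl24 and Cxcl13 were led by macrophages below the 100 CPM rule, with ranges of 1.79 to 126 and 10.9 to 108 CPM.

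**Figure D2:**
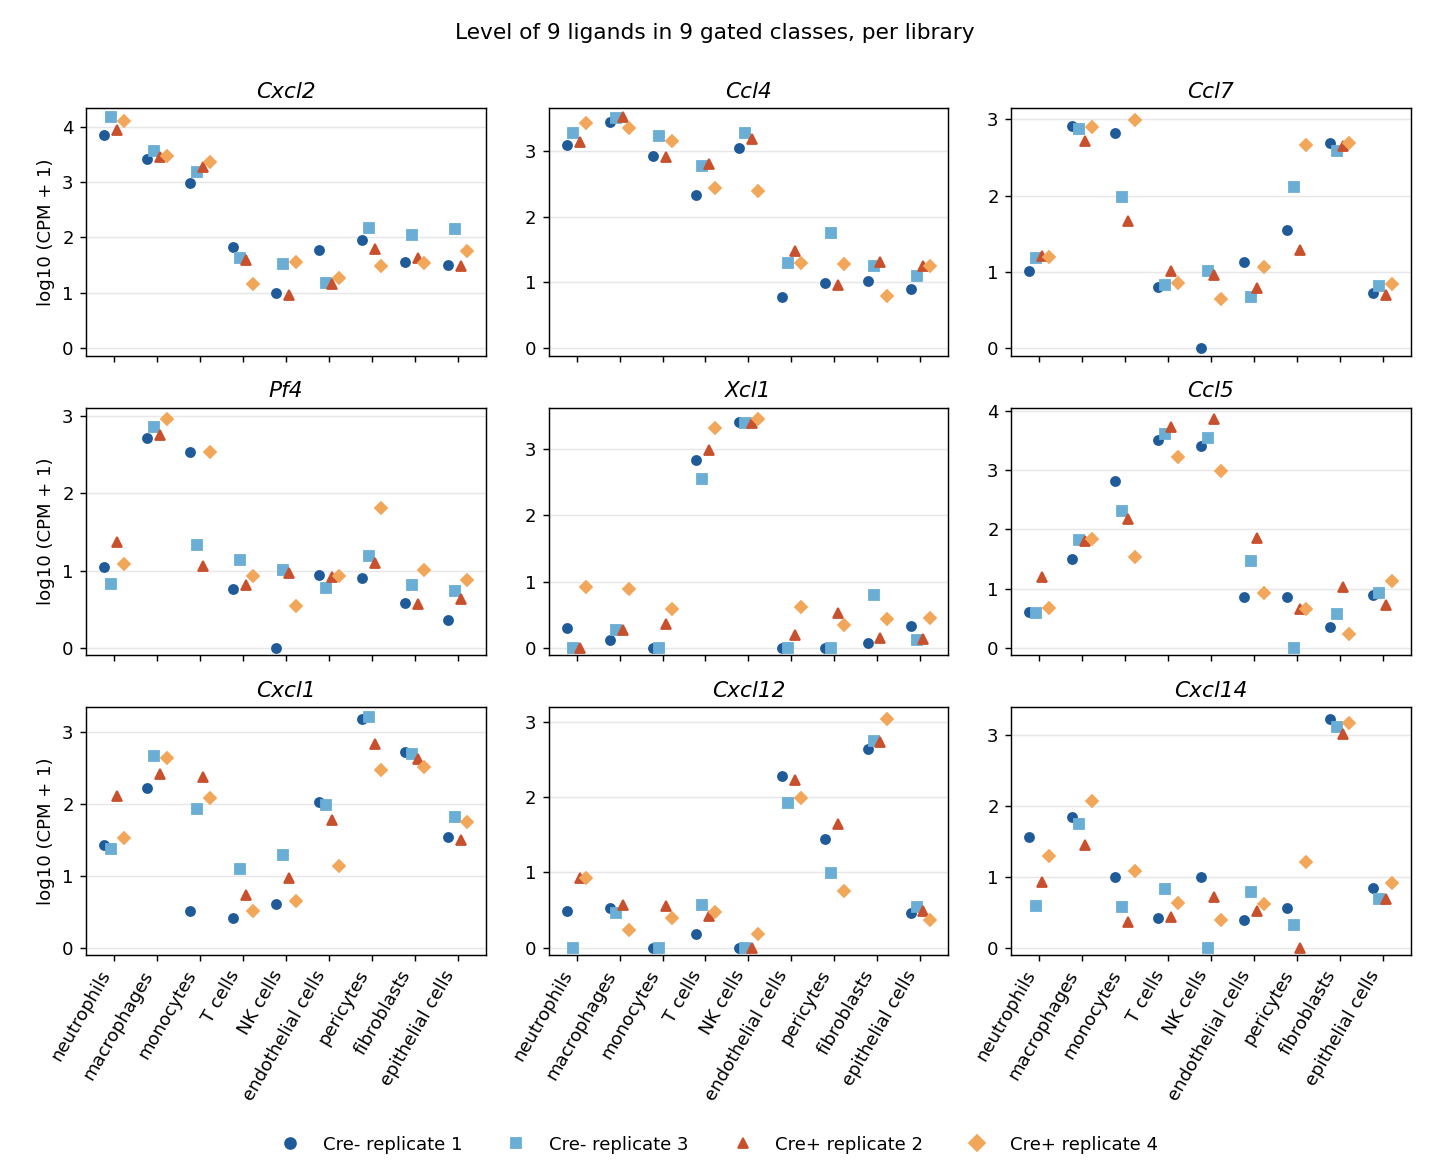
Level of 9 ligands as log10 of CPM plus 1 (vertical axes) in 9 gated classes (horizontal axes), 1 point per library. Cxcl14 is above 1000 CPM in fibroblasts of all 4 libraries, and Xcl1 is above 2000 CPM in their NK cells.

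The receptors of these cells were Ccr2 and Cx3cr1. Ccr2, which leads monocytes out of marrow, stood at 1040.0, 1273, 1632 and 771 CPM in monocytes and 243, 262, 406 and 71.4 CPM in macrophages, with Cre+ replicate 4 lowest in both. Cx3cr1, the receptor for Cx3cl1, stood at 448, 475, 479 and 424 CPM in macrophages and 161, 175, 187 and 205 CPM in monocytes, without overlap. The order of these classes was thus opposite for the 2 receptors in every library.

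Within macrophages, levels of the set were compared between 2 subsets. Macrophages were divided by marker UMIs into resident-like cells (at least 2 of Folr2, Lyve1 and Cd163; 136, 274, 423 and 127 cells), Mmp12 macrophages (221, 185, 223 and 1115 cells) and the rest. Of the 19 genes with at least 10 UMIs in both subsets of every library, 8 were higher in resident-like cells in all 4 libraries and 6 were higher in Mmp12 macrophages in all 4. By the same rule, 40.9% of 8428 genes were higher in resident-like cells and 17.2% in Mmp12 macrophages, so the first count is near that of all genes. The first group held Ccl24, Pf4, Ccl7, Ccl6, Ccl9, Ccl2, Ccl12 and the receptor Ccr2, and the second Ccl3, Ccl4, Cxcl10, Cxcl14, Cxcl16 and the receptor Cx3cr1. Pf4 stood at 2004, 1813, 1365 and 2546 CPM in resident-like and 272, 349, 77.3 and 691 CPM in Mmp12 macrophages, a mean log2 ratio of 2.82 ± 0.97 (SD, n = 4). For Ccl6 the mean log2 ratio was 2.68 ± 0.24, for Ccl7 2.78 ± 0.74, for Ccl24 4.03 ± 0.84 and for Ccl2 1.72 ± 0.61 (SD, n = 4 each). On the other side, Ccl3 stood at 477, 478, 298 and 385 CPM in resident-like and 1470.0, 1915, 1694 and 711 CPM in Mmp12 macrophages, a mean log2 ratio of -1.75 ± 0.68, and Ccl4 and Cxcl16 had -1.44 ± 0.55 and -1.71 ± 0.41 (SD, n = 4 each). Cxcl1, Cxcl2, Cxcl3, Cxcr4 and Ccr1 were in neither group. Ccr1 had -0.13 ± 0.16, less than its spread between libraries. Cxcl2, at 4141, 3113, 2841 and 1784 CPM in resident-like and 3369, 5454, 3387 and 3503 CPM in Mmp12 macrophages, had -0.43 ± 0.58 (SD, n = 4). These ratios are a description with no test.

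**Figure D3:**
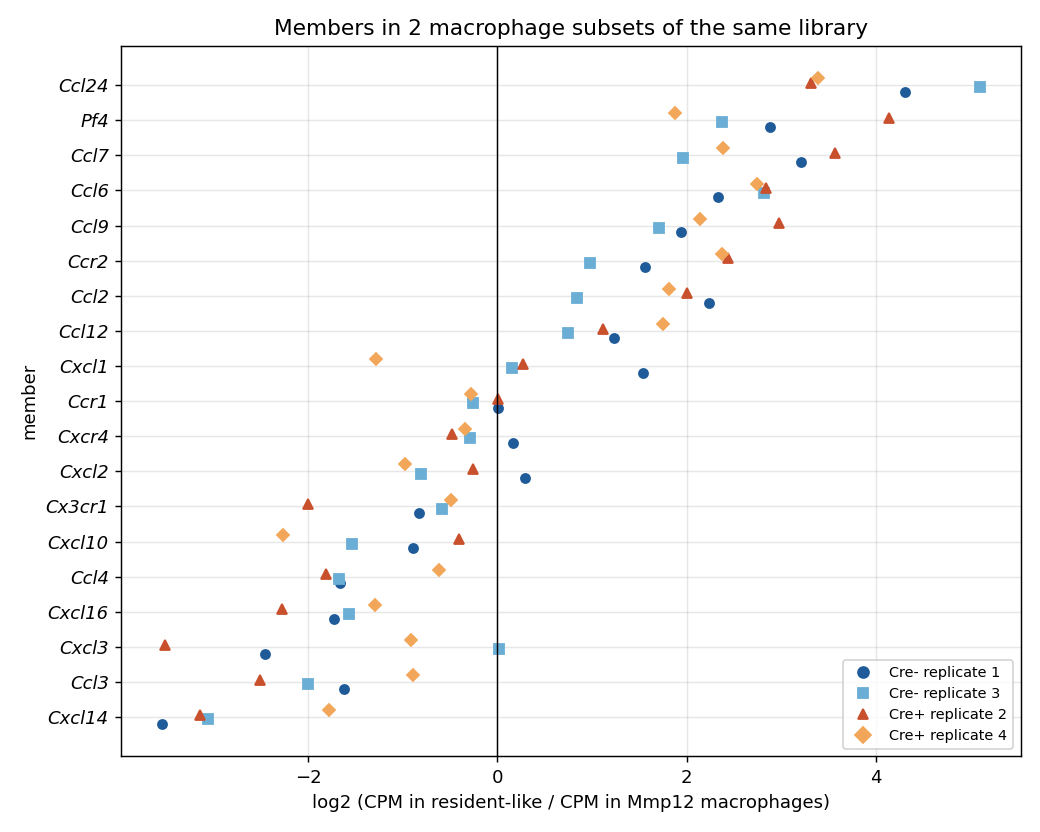
Log2 ratio of the CPM in resident-like macrophages over the CPM in Mmp12 macrophages of the same library (horizontal axis) for 19 genes (vertical axis), 1 point per library. The top 8 genes lie right of 0 in all 4 libraries, and Cx3cr1, Cxcl10, Ccl4, Cxcl16, Ccl3 and Cxcl14 lie left of 0 in all 4.

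T and NK cells carried Ccl5, Xcl1, Cxcr6 and Cxcr3. Xcl1, the ligand that draws cross-presenting cDC1, stood at 2551, 2387, 2424 and 2756 CPM in NK cells, nearly the same in all 4 libraries (33, 22, 27 and 101 cells). In T cells it stood at 662, 347, 956 and 2063 CPM, lower than in NK cells of every library, and higher in both Cre+ than in both Cre- libraries. Its receptor Xcr1 was counted in cDC1, at 265, 434 and 438 CPM in the 3 libraries with 20 or more of them (Cre- replicate 3, Cre+ replicate 2 and Cre+ replicate 4). Ccl5, a ligand that draws T cells, stood at 3281, 4111, 5270.1 and 1679 CPM in T cells and 2542, 3429.7, 7198 and 966 CPM in NK cells. Cre+ replicate 4 was the lowest in both, and Cre+ replicate 2 the highest. CD8 T cells (134, 128, 120 and 180 cells) held Ccl5 at 4784, 7031, 7824 and 1736 CPM, above the T cells as a whole in each library. Mature DCs of Cre- replicate 3 held 8079.8 CPM (95% interval for counting error 7803 to 8364). Cxcr6, which keeps T cells in tissue, stood at 288, 408, 349 and 253 CPM in T cells and 39.2, 14.0, 16.5 and 19.2 CPM in NK cells. Cxcr3, a receptor of activated T cells, ranged from 54.3 to 117 CPM in T cells, and cDC1 overlapped them at 61.7 to 73.0 CPM. Cxcr4 divided the T cells, with 753, 385 and 322 CPM in CD4 T cells without Foxp3 and 103, 218 and 117 CPM in CD8 T cells of the 3 libraries with at least 20 of the former (Cre+ replicate 4 had 15). In the Foxp3 T cells of the Cre- mice, a regulatory subset, it stood at 1004 and 488 CPM (25 and 23 cells).

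T cells against NK cells, tested on 18 genes of the set in the same way (n = 4 libraries per class), differed in 1 gene higher and 1 lower in T cells, beside 2.24% of 8848 genes higher and 1.72% lower. Cxcr6 was higher in T cells (log2 fold change 3.77, SE 0.28, adjusted p = 1.35e-05) and Ccr2 was lower (-1.59, SE 0.39, adjusted p = 0.0422). Xcl1 had a log2 fold change of -1.36 (SE 0.43, adjusted p = 0.127) and Ccl5 -0.02 (SE 0.46, adjusted p = 0.999), neither of them called. Both sums of a library come from 1 mouse. With the library as a block, 3 genes were called higher and 4 lower, so 7 in place of 2, beside 3.99% of all genes higher and 3.25% lower. Of 18 signalling genes, Arrb1 and Gng2 were higher in T cells.

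Mature DCs and B cells held receptors of lymph node homing, and each class reached 20 cells in 1 library. Over all 4 libraries, mature DCs held 39.7% to 69.2% of the gated Ccr7 UMIs of a library, and B cells held 36.6% to 89.9% of the Cxcr5 UMIs. The 37 mature DCs of Cre- replicate 3 held Ccr7, which leads DCs to lymph nodes, at 2856 CPM (2692 to 3027), Ccl22 at 1224 CPM (1118 to 1338), Ccl17 at 367 CPM and Cxcl16 at 1031 CPM. Ccl17 and Ccl22 lie on chromosome 8 with Cx3cl1 between them and are both ligands of Ccr4. cDC2 also held Ccl17, at 346 CPM in Cre- replicate 3, at 212 CPM in Cre+ replicate 2, and had no UMI in Cre- replicate 1, where 3 UMIs would have given 6.51 CPM. The 82 B cells of Cre+ replicate 4 held Cxcr5, which leads B cells to follicles, at 219.7 CPM (172 to 277) and Ccr7 at 984 CPM. Ccr6 was low throughout, at 4.52 to 16.7 CPM in T cells and 20.1 CPM in the mature DCs (8 UMIs).

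Fibroblasts held the stromal ligands. Cxcl14 stood at 1701, 1288, 1052 and 1489 CPM in fibroblasts, with a highest value in any other class of 118 CPM. Cxcl12 stood at 437, 563, 547 and 1109 CPM in fibroblasts, highest in Cre+ replicate 4, and at 193, 82.2, 171 and 98.4 CPM in endothelial cells, without overlap. Ccl11, which draws eosinophils, stood at 674, 581, 342 and 465 CPM in fibroblasts and at 323, 86.0, 217 and 977 CPM in pericytes, where Cre+ replicate 4 (40 cells, with more of the fibroblast list than of the pericyte list) lay above every fibroblast value. Ccl19, a ligand of Ccr7, stood at 36.9 to 91.4 CPM and Cxcl5, a neutrophil-drawing ligand, at 10.4 to 104 CPM in fibroblasts. Cxcl1 was led by pericytes, at 1526, 1607, 678 and 295 CPM, with 531, 496, 417 and 324 CPM in fibroblasts and lower values in Cre+ than in Cre- libraries in both classes. The pericyte values of Cre+ replicate 4, for Cxcl1 and for Ccl2 below, come from the same 40 cells with more of the fibroblast list. Genotypes were not compared by a test in pericytes. Macrophages held Cxcl1 at 164, 460.3, 261 and 442 CPM, above both stromal classes in Cre+ replicate 4, and they held 22.1% to 77.8% of the gated Cxcl1 UMIs of a library. Pericytes and fibroblasts also held Ccl2, at 313, 634, 182 and 2274 CPM and 404, 823, 984 and 604 CPM.

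The atypical receptors were led by stromal classes as well. Ackr3, which binds Cxcl12, stood at 306, 237, 401 and 185 CPM in fibroblasts and 48.1, 104, 118 and 149 CPM in endothelial cells, without overlap. Epithelial cells held Ackr3 at 6.83 to 12.2 CPM, with 9.92% to 39.0% of its gated UMIs. In Cre+ replicate 4 their Ackr3 level was 94.6% of that of the empty droplets. Ackr2, which clears CC ligands, was led by endothelial cells (16.6, 22.3, 27.9 and 39.1 CPM) over fibroblasts (10.5, 11.7, 14.2 and 13.3 CPM). Ackr1, which moves ligands across venules, stood at 32.3, 24.6, 50.7 and 28.4 CPM in fibroblasts and 36.1, 13.8, 31.3 and 0 CPM in endothelial cells, where 3 UMIs would have given 3.17 CPM in Cre+ replicate 4. Endothelial cells with at least 2 of 3 venular markers held 58.8, 37.5 and 119 CPM of Ackr1 in Cre- replicate 1, Cre- replicate 3 and Cre+ replicate 2. Cre+ replicate 4 had 2 such cells. Cxcl9 was led by endothelial cells (17.6 to 249.7 CPM), with cDC1 at 23.5 to 86.4 CPM.

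Fibroblasts against endothelial cells gave 12 genes of the set higher and 4 lower in fibroblasts, of 24 tested (n = 4 libraries per class). Over all 11182 genes, 31% were higher and 27.2% lower, and the median log2 fold change was 1.44 in the set and 0.03 overall. The 12 were Ccl11 (log2 fold change 9.71, SE 0.44, adjusted p = 3.67e-08), Cxcl14 (8.999, SE 0.32, adjusted p = 8.51e-09), Ccl7 (6.04, SE 0.31, adjusted p = 7.92e-08), Cxcl12 (2.48, SE 0.35, adjusted p = 0.00015), Ackr3 (1.65, SE 0.33, adjusted p = 0.0017), Ccl2, Ccl19, Cxcl1, Cxcl5, Cxcl13, Cxcl16 and Cx3cl1. Of these, Cxcl5 had no UMI in endothelial cells and was at least 139.8-fold higher in fibroblasts, and at that bound the set's median stayed at 1.44. Those lower were Cxcr4 (-5.36, SE 0.50, adjusted p = 6.52e-06), Ccl5 (-2.48, SE 0.81, adjusted p = 0.0229), Cxcl9 (-1.72, SE 0.62, adjusted p = 0.0364) and Ackr2 (-0.82, SE 0.24, adjusted p = 0.0139). Fibroblast sums also held 849 to 1337 CPM of the monocyte marker list, which includes the matrix gene Vcan. Of 13 signalling genes, 1 was higher and 8 were lower in fibroblasts, among them Pik3cg (-4.49) and Elmo1 (-3.31), and of 4 further family genes Ccl8 (3.26) and Ccl27a (2.73) were higher. With the stricter gate, which left 2 libraries with 20 cells of both classes, the direction of Cxcl12 turned (log2 fold change -0.18, not called), and with at most 30000 UMIs per cell that of Ackr2 turned (0.29, not called).

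Epithelial cells held little of most genes of the set. Of 41 genes tested against all other gated cells (n = 4 libraries each), 38 were lower in epithelial cells and 2 higher, beside 29.2% of 16306 genes lower and 27.8% higher, with a median log2 fold change of -6.12 in the set and 0.04 over all genes. The 2 higher were Ccl20 (log2 fold change 4.61, SE 1.60, adjusted p = 0.0363) and Cx3cl1 (1.30, SE 0.49, adjusted p = 0.0482), and Cxcl5 was not called (-1.85, SE 0.85, adjusted p = 0.0957). Ccl20, the ligand of Ccr6, stood at 0.678, 0.777, 0.123 and 18.1 CPM in epithelial cells (55, 52, 7 and 1235 UMIs). Cre+ replicate 4 alone was above 1 CPM, its luminal progenitor cells held 29.1 CPM, and without this library the log2 fold change was 1.01 (adjusted p = 0.308). Cx3cl1, a ligand tethered to the membrane, stood at 26.9, 19.9, 28.9 and 8.11 CPM in epithelial cells and at 81.4, 28.1, 37.7 and 11.8 CPM in their basal cells, and Cre+ replicate 4 was the lowest in both. Fibroblasts held 32.7, 29.9, 32.0 and 29.1 CPM, a higher level, but epithelial cells held 76.3% to 89.5% of the gated Cx3cl1 UMIs. Neither call held when Cre- replicate 1 was left out (log2 fold changes 5.29 and 1.21, adjusted p of 0.068 for Ccl20 and 0.168 for Cx3cl1) or Cre- replicate 3 (0.0696 and 0.135). Without Cre+ replicate 2, that of Cx3cl1 was lost too (0.0913) and that of Ccl20 held (0.0486). With the library as a block, Ccl20 was not called (2.35, adjusted p = 0.188) and Cx3cl1 was (1.35, adjusted p = 0.000824). Cx3cl1 was also called by DESeq2 (1.29, adjusted p = 0.0175), which gave 4.59 for Ccl20 and no adjusted p. The edgeR fit called Cx3cl1 with at most 30000 UMIs (2.80, adjusted p = 0.00181) and with the stricter gate (3.57, adjusted p = 0.00238). Ccl20 had no result in either of these fits. Its leading class changed to pericytes with at most 30000 UMIs and to cDC1 with the stricter gate. Ccl28 was under 1 CPM in epithelial cells of every library (0.176 to 0.763 CPM).

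The 3 ligands above 20 CPM in epithelial cells of every library, picked after their values were seen, were Cxcl1, Cxcl2 and Cxcl16. Cxcl1 stood at 33.7, 65.02, 30.1 and 55.2 CPM, Cxcl2 at 31.0, 142, 29.3 and 56.1 CPM and Cxcl16 at 25.8, 41.9, 40.8 and 35.6 CPM. Cre- replicate 3 was the highest for each of them. In the empty droplets of Cre+ replicate 4, these ligands stood at 255, 1357 and 305 CPM, and the epithelial level of the same library was 21.6%, 4.13% and 11.7% of that. For 31 of the 42 genes the epithelial level was under 10% of the empty-droplet level (median over all 42 3.97%). For Ccl20 (322%) and Cx3cl1 (168%) it was above the empty-droplet level. Ccl28 stood at 127%, but its empty-droplet level rested on 3 UMIs. Its epithelial 0.763 CPM lay within the 95% interval of that level (0.124 to 1.76 CPM), so no direction can be read from it. The same comparison was not made over all genes, so whether the set differs from other genes here was not tested. Of 18 signalling genes, 16 were lower in epithelial cells and none higher, and of 14 further family genes 8 were lower and 4 higher (Cxcl17, 7.43; Cxcl15, 6.38; Ccl27a, 1.58; Ccl25, 0.60).

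The share of cells with a receptor UMI gave the same leading classes for 12 of the 14 receptors before and after every cell was thinned to 1000 UMIs. After thinning, 59.5, 50.0, 64.5 and 51.4% of neutrophils held a Cxcr2 UMI, against 0 to 0.0448% of epithelial cells, the class that should lack it. Ccr1 was found in 60.7, 60.7, 51.6 and 72.9% of neutrophils and 13.5 to 19.6% of macrophages. Ccr2 was found in 46.8, 75.4, 68.0 and 45.0% of monocytes and 0.285 to 0.448% of epithelial cells. These shares were far over the epithelial background. Cx3cr1 was found in 27.6 to 29.3% of macrophages, Cxcr6 in 19.0 to 27.8% of T cells, Xcr1 in 17.6 to 37.5% of cDC1 and Ackr3 in 12.8 to 29.5% of fibroblasts, each beside at most 1.30% of epithelial cells. Without thinning the same shares were 58.4 to 70.2%, 59.6 to 72.1%, 80.8 to 82.4% and 51.9 to 73.2%. Of epithelial cells, at most 3.81%, 0.460% and 0.153% then held Cx3cr1, Cxcr6 and Xcr1, but 8.47 to 17.4% held Ackr3. The exceptions were Cxcr3, led by T cells after thinning (7.30 to 14.5%) and by the deeper cDC1 before it, and Cxcr4, led by neutrophils after thinning (42.9, 56.0, 38.7 and 30.0%) and by B cells of Cre+ replicate 4 before it. Cxcr4 was spread over several classes, with 23.3 to 31.9% of monocytes, 10.7 to 27.8% of T cells, 5.08 to 23.2% of endothelial cells and 0.498 to 1.69% of epithelial cells after thinning. For 10 receptors the leading class was present in all 4 libraries, and Cre+ was compared with Cre- (exact two-sided permutation test, n = 2 each). The smallest p that 2 mice against 2 allow, 0.3333, was reached by Ackr2, Cx3cr1, Cxcr4 and Cxcr6 (adjusted p = 0.833 each). That p is reached whenever the genotypes do not overlap, and the same count over all genes was not made. The mean share of T cells with Cxcr6 was 25.9 ± 2.64% in Cre- against 20.02 ± 1.43% in Cre+ libraries, and that of neutrophils with Cxcr4 was 49.4 ± 9.22% against 34.4 ± 6.16% (SD, n = 2 per genotype).

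**Figure D4:**
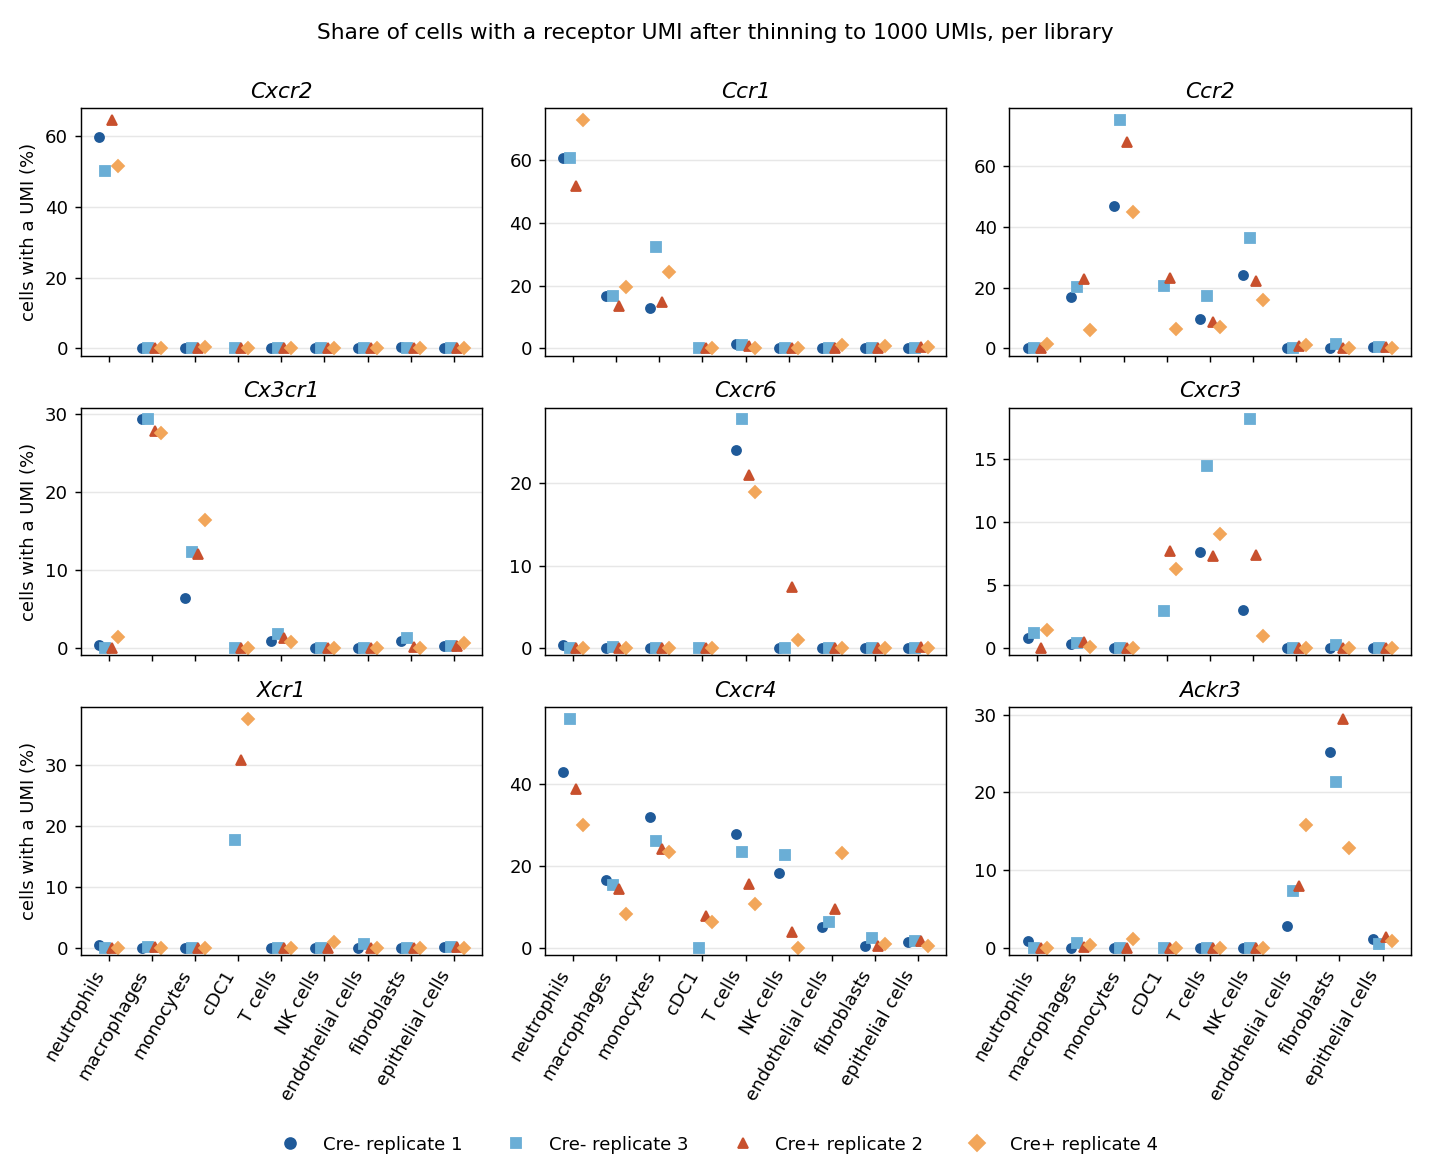
Percent of cells with at least 1 UMI of 9 receptors (vertical axes) after thinning each cell to 1000 UMIs, in 9 gated classes (horizontal axes), 1 point per library. Cxcr2 is at 50.0% to 64.5% in neutrophils and near 0 elsewhere, while Cxcr4 is above 0 in most classes.

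The genotype comparison asked whether chemokine signals differed between tumors with and without Cre. None of the 42 genes was called in any of 6 edgeR fits (2 Cre+ against 2 Cre- libraries), in all kept barcodes, epithelial cells, macrophages, neutrophils, T cells or fibroblasts. Over all genes, 0% were called in 5 of the fits and 0.0106% (1 of 9396 genes) in T cells. At an unadjusted p under 0.05 were 2 of 42 genes of the set in all kept barcodes (410 of 18073 genes), 1 of 33 in epithelial cells (393 of 16173), none of 30 in macrophages (262 of 13082), 3 of 11 in neutrophils (330 of 3916), 5 of 20 in T cells (376 of 9396) and 4 of 30 in fibroblasts (637 of 12612). By DESeq2, 1 gene of the set was called in neutrophils (Ccl6), beside 0.383% of all genes, 1 in T cells (Cxcl10), beside 0.0319%, and 0 in the other fits, beside 0.166% in all kept barcodes, 0.414% in epithelial cells, 0.0917% in macrophages and 0.5% in fibroblasts. The median log2 fold change of the set (Cre+ over Cre-) was 0.40 in all kept barcodes, 0.29 in epithelial cells, 0.01 in macrophages, 0.59 in neutrophils, -0.22 in T cells and 0.02 in fibroblasts, and within 0.04 of 0 for all genes. Leaving out 1 library moved these medians. They ran from -0.01 (without Cre- replicate 1) to 0.86 (without Cre- replicate 3) in all kept barcodes, from 0.09 (without Cre+ replicate 4) to 0.58 (without Cre- replicate 3) in epithelial cells and from -0.32 (without Cre+ replicate 2) to 0.22 (without Cre- replicate 3) in macrophages. In neutrophils they ran from 0.07 (without Cre+ replicate 4) to 0.98, in T cells from -0.66 (without Cre- replicate 1) to 0.31 and in fibroblasts from -0.41 (without Cre+ replicate 2) to 0.35, the highest each without Cre- replicate 3. No gene of the signalling or further family lists was called in the 6 main edgeR fits.

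In neutrophils, Ccl6 stood at 228, 459.6, 1091 and 1691 CPM, with genotype means of 344 ± 164 for Cre- against 1391 ± 424 for Cre+ (SD, n = 2 per genotype). Both Cre+ libraries lay above both Cre- libraries, with a log2 fold change of 2.22 (SE 0.44, unadjusted p = 0.000838, adjusted p = 0.28). DESeq2 gave 2.23 for Ccl6 (adjusted p = 0.00211), and over its alternatives the adjusted p ran from 2.35e-12 (stricter gate, where Cre+ replicate 2 had 9 neutrophils and dropped out) to 0.484 (without Cre- replicate 1). Neutrophils of the Cre+ libraries numbered 31 and 70, and of the Cre- libraries 247 and 84. In the same cells Cxcl10 had a log2 fold change of 1.73 (SE 0.71, unadjusted p = 0.0398, adjusted p = 0.56) and Cxcl1 1.68 (SE 0.59, unadjusted p = 0.0212, adjusted p = 0.49). Without Cre+ replicate 4, the log2 fold change of Cxcl10 was 0.10 and that of Cxcl1 was 2.45. The Cre+ side of these values is then the 31 neutrophils of Cre+ replicate 2 alone. DESeq2 gave a log2 fold change of 1.81 for Cxcl1 and no adjusted p. With no filter on low counts, edgeR gave 1.65 for Cxcl10 (adjusted p = 0.000834) and 1.58 for Cxcl1 (adjusted p = 0.165). With the stricter gate, which dropped Cre+ replicate 2, Cxcl10 had 3.45.

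In T cells, Xcl1 had a log2 fold change of 1.72 (SE 0.42, unadjusted p = 0.00222, adjusted p = 0.94) at the values given above, with genotype means of 505 ± 223 CPM for Cre- against 1509.5 ± 783 CPM for Cre+ (SD, n = 2 per genotype). Within CD8 T cells it stood at 884, 534, 1309 and 2126 CPM, again higher in both Cre+ libraries. In T cells as a whole its adjusted p ran from 4.06e-20 (without Cre+ replicate 2) to 1.00 (DESeq2), past the threshold also with no filter, without Cre- replicate 1 and with the stricter gate, and its log2 fold change was 0.96 without Cre+ replicate 4. NK cells, in which Xcl1 is higher, made up 0.751%, 0.472%, 0.537% and 1.66% of the gated cells. The NK marker list summed to 1398, 928, 1994 and 1768 CPM in T cells, also higher in both Cre+ libraries (1 or 2 of its 8 genes were at 0), and its part in the Xcl1 values was not tested. Cxcl10 stood at 170.3, 105, 45.4 and 23.3 CPM, lower in both Cre+ libraries, with a log2 fold change of -1.93 (SE 0.34, unadjusted p = 0.000217, adjusted p = 0.94), and DESeq2 gave -1.92 (adjusted p = 0.00282), and its adjusted p over the alternatives ran from 7.42e-15 (without Cre+ replicate 2) to 0.929 (at least 10000 UMIs in Cre+ replicate 4). Cxcr4 (-1.26, SE 0.36, unadjusted p = 0.00655, adjusted p = 0.94), Ccr2 (-1.02) and Cxcl2 (-1.004) were lower in Cre+ T cells at the unadjusted level. All 3 were called without Cre+ replicate 2, and Cxcr4 also with no filter on low counts. Cxcr4 stood at 334, 317, 189 and 71.7 CPM in T cells, lowest in Cre+ replicate 4, and at 103, 218, 117 and 38.4 CPM in their CD8 T cells, where the range of one genotype overlapped the other.

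In fibroblasts, Cxcl9 stood at 46.7, 30.4, 15.6 and 18.2 CPM, lower in both Cre+ libraries, with a log2 fold change of -1.17 (SE 0.24, unadjusted p = 0.0036, adjusted p = 0.53). Ccl11 had a log2 fold change of -0.61 (SE 0.19, unadjusted p = 0.0191, adjusted p = 0.81), Cxcl13 -1.58 (SE 0.59, unadjusted p = 0.04, adjusted p = 0.94) and Cxcl1 -0.44 (SE 0.17, unadjusted p = 0.0425, adjusted p = 0.96). With the stricter gate, where Cre+ replicate 4 had 12 fibroblasts and dropped out, the signs of Cxcl9 (0.58) and Cxcl1 (0.64) turned. In all kept barcodes, Xcl1 (2.01, SE 0.72, unadjusted p = 0.0442, adjusted p = 1.00) and Ccl22 (-1.91, SE 0.57, unadjusted p = 0.0237, adjusted p = 1.00) were at the unadjusted level, and in such sums fewer cells of a type and less RNA per cell cannot be told apart. In epithelial cells, Ccl4 stood at 6.91, 11.4, 16.6 and 17.0 CPM, with a log2 fold change of 0.94 (SE 0.33, unadjusted p = 0.0388, adjusted p = 1.00). With at most 30000 UMIs per cell it was 0.09. The macrophage marker list summed to 125, 128, 244 and 157 CPM in epithelial cells, and its part in the Ccl4 values was not tested.

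**Figure D5:**
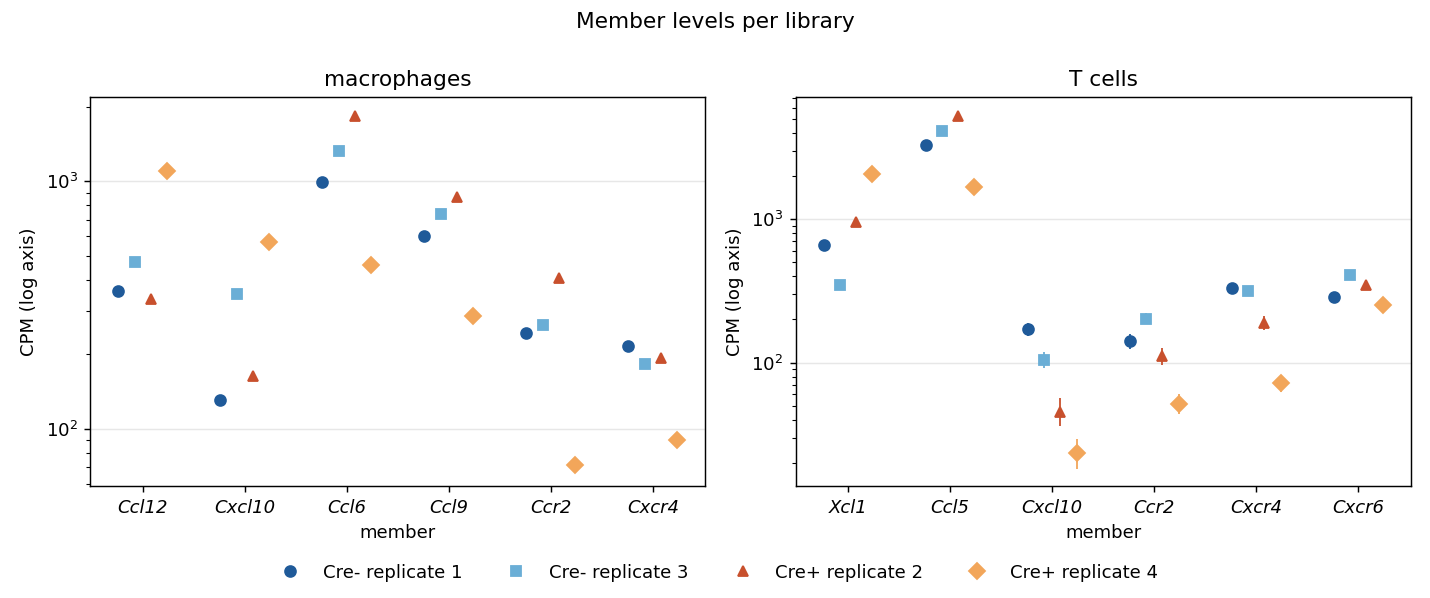
CPM (log axis) of 6 genes of the set in macrophages (left) and T cells (right), 1 point per library, with exact 95% Poisson bars for counting error. For macrophages, the 6 genes were picked as genes in which Cre+ replicate 4 is apart from the other 3 libraries, so that pattern follows from the choice. In these genes Cre+ replicate 2 is on the side of the Cre- libraries. In macrophages, 15 genes of the set that are not drawn lay within 1.5 times the range of the other libraries.

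The Cre+ libraries did not move together in macrophages. Of 27 genes of the set with at least 10 UMIs in macrophages of every library, 4 in Cre+ replicate 4 were over 1.5 times the highest of the other libraries (Ccl12, Cxcl3, Cxcl10 and Cxcl14) and 8 were under the lowest by the same factor (Ccl6, Ccl9, Ccl24, Cxcl12, Cxcl13, Ccr2, Cxcr3 and Cxcr4). Of 11930 genes under the same rule, 2.62% were above and 12.9% below. Ccl6 stood at 996, 1320.1, 1843 and 460.2 CPM in macrophages, with Cre+ replicate 2 the highest and Cre+ replicate 4 the lowest. Ccr2 showed the same order, at 243, 262, 406 and 71.4 CPM. The resident-like share of the macrophages differed too, with 136, 274, 423 and 127 such cells of 1002, 1391, 1586 and 2275, beside 221, 185, 223 and 1115 Mmp12 macrophages. The dissociation list summed to 8986, 8738, 13607 and 5916 CPM in macrophages, also highest in Cre+ replicate 2 and lowest in Cre+ replicate 4. The part of either in these values was not tested. Within resident-like cells, Ccl6 stood at 3670.0, 4232, 4799.5 and 2106 CPM, again lowest in Cre+ replicate 4. Cxcl10, among the 4 genes above, stood at 85.4, 192, 159 and 129 CPM in these cells, where Cre- replicate 3 was the highest. These genes are examples, and not every gene kept its order within the subset. Without Cre+ replicate 2, so with Cre+ replicate 4 alone against both Cre- libraries, the macrophage fit called 4 genes of the set higher and 7 lower, and the T cell fit 1 higher and 6 lower, with the lone library assumed to vary like the others. Over all genes, these fits called 5.17% higher and 6.14% lower in macrophages and 4.74% higher and 5.13% lower in T cells. They also called 3 and 4 of the 10 dissociation genes lower, and the part of these in the values was not tested. Cre+ replicate 4 was also made with another Cell Ranger version and deposited in another form, so library, version and genotype cannot be told apart in it. In epithelial cells, 9 of 27 genes were above the other libraries by that factor in Cre+ replicate 4 and 3 were below, beside 5.28% and 12.6% of 14493 genes. The 9 were Ccl2, Ccl5, Ccl12, Ccl28, Cxcl5, Xcl1, Pf4, Ccr1 and Cx3cr1. In the epithelial cells of that library the neutrophil marker list summed to 412 CPM (64.4 to 119 in the others) and the NK list to 7.60 CPM (0.721 to 1.05 in the others). The macrophage list (125, 128, 244 and 157 CPM) and the monocyte list (63.2, 8.87, 46.5 and 9.31 CPM) were not highest there. The part of these lists in the values of the 9 genes was not tested.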

How the data were processed

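Single-cell RNA of tumors from 4 mice, 1 library each, was analysed. The files hold UMI counts as the authors deposited them, whole and not normalized, made per the file headers and the methods with Cell Ranger 6.1.2 for replicates 1 to 3 (called cells of at least 500 UMIs) and Cell Ranger 4 for replicate 4 (all 2582424 barcodes). The submitters' notes name a human genome build, hg38, while the files hold mouse gene identifiers, so no coordinates were taken from them. Sequences come from RefSeq promoters of GRCm38.p6 (32 of 42 genes matched). Genotypes come from the labels, and the cells had been sorted by flow cytometry.

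The genes, marker lists and pathway lists were chosen with earlier results of these data known. Barcodes with at least 1000 UMIs and at most 20% mitochondrial UMIs were kept. Each marker was scaled to the 90th percentile of its non-zero cells on a log2 scale per 10000 UMIs, and a class score was the mean over its list. A cell took its best class if at least 3 of its markers were detected and the next class outside its family scored at most 0.5 of the best. This scoring was settled after class counts, and no level of the 42 genes, had been seen. 313 to 519 kept barcodes of a library lay within 0.1 of that bound. Cells with no class or with mixed classes were left out of class levels, and no doublet caller was run. Totals of kept barcodes were 107848230 to 134882211 UMIs per library.

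Counts were summed per library and class (at least 20 cells) and tested with edgeR 4.0.16 (quasi-likelihood, TMM, Benjamini-Hochberg adjustment over all genes tested, adjusted p of 0.05) in R 4.3.3, fitting both sums of each library without a block in class comparisons. Alternatives were DESeq2 1.42.0, no filter on low counts, a replicate block, leaving out each library, at least 2000 UMIs, at least 10000 UMIs in Cre+ replicate 4, a stricter gate (at most 1 marker gene of any other class) and, chosen after seeing the data, at most 30000 UMIs. Intervals are exact Poisson intervals at 95% and floors are 3 counts, and both cover counting error only. A gene is given in every library where its leading class reached 100 CPM in each, and otherwise by range, except where a comparison needed its values. Levels, shares and exact permutation tests were computed in Python 3.11.15 with scipy 1.17.1. The fits were also run on simulated counts with the same spread set for every gene. That run does not show how they do at the spread between these mice. 1 gene of the pathway lists is not reported here. Each replicate is a separate mouse with 1 library, so p-values rest on 2 mice per genotype.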

Additional observations from a re-analysis of the deposited data

Results flagged for a closer look

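Cxcl12 in macrophages against neutrophils was picked out by opposite signs in the genotypes. Neutrophils held 2, 0, 1 and 2 Cxcl12 UMIs in the 4 libraries, under the floor of 3 counts, so no direction can be read from it. The log2 ratio of their CPM values, with 1 added to each, was 0.15 and 1.53 in the Cre- libraries (mean 0.84) and -2.30 and -1.23 in the Cre+ libraries (mean -1.77). The difference between genotypes was not tested. Cxcl10 did the same in T cells against NK cells, with ratios from 0.32 to 3.41 in Cre- (mean 1.87) and from -3.42 to -1.11 in Cre+ libraries (mean -2.27), and this difference was not tested either. NK cells numbered 22 to 101 per library and held 5, 18, 24 and 525 Cxcl10 UMIs.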

How the results depend on the processing

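Only results of the set already picked by their p in the main edgeR fits were followed, so the tally does not cover the rest. Over the 77 results called in the class comparisons, 795 values under alternatives kept their direction and side of the threshold, 30 kept only the direction and 3 turned. Over the 15 results of the genotype comparison at an unadjusted p under 0.05, 120 values stayed, 24 passed the adjusted threshold that they had missed and 2 turned. With DESeq2, the genotype fits called 30 genes in all kept barcodes, 67 in epithelial cells, 12 in macrophages, 15 in neutrophils, 3 in T cells and 63 in fibroblasts, with 1 gene of the set in neutrophils and 1 in T cells. With no filter on low counts, they called 6 genes in macrophages, 84 in neutrophils, 112 in T cells and 496 in fibroblasts (3, 3 and 8 genes of the set in the last 3 classes), and T cells against NK cells gave 594 genes (8 of the set). Leaving out 1 library, the genotype fits called 0 to 2 genes in all kept barcodes, 0 to 11 in epithelial cells, 0 to 1544 in macrophages, 2 to 32 in neutrophils, 1 to 992 in T cells and 0 to 14 in fibroblasts, the highest each time without Cre+ replicate 2, and of the set 0 to 11 in macrophages, 0 to 3 in neutrophils and 0 to 7 in T cells. T cells against NK cells gave 176 to 441 genes and 1 to 6 of the set. With at least 10000 UMIs in Cre+ replicate 4, neutrophils of that library fell under 20 cells and dropped out (24 genes, 3 of the set), T cells gave 0 genes, and T cells against NK cells gave 200 (1 of the set). The stricter gate also dropped libraries with under 20 cells, leaving 3 in the genotype fits of neutrophils and fibroblasts and 2 in fibroblasts against endothelial cells and T cells against NK cells. With it, neutrophils gave 153 genes (3 of the set), T cells 5 (1), fibroblasts 4 (1), fibroblasts against endothelial cells 943 (6) and T cells against NK cells 122. With the replicate block, T cells against NK cells gave 641 genes and 7 of the set, and macrophages against neutrophils gave 5476 and 21. In the same way, fibroblasts against endothelial cells gave 6412 and 15, and epithelial against all other gated cells gave 9588 and 39. Both sums of a library come from 1 mouse, which is the pairing. The genotype groups share no replicate number, so no paired fit of them was possible. Under the stricter gate the log2 fold change of Cxcl12 in fibroblasts against endothelial cells was -0.18, that of Ackr3 in epithelial against all other cells (4 libraries) 1.53, and those of Cxcl1 and Cxcl9 by genotype in fibroblasts 0.64 and 0.58. With at most 30000 UMIs that of Ackr2 in fibroblasts against endothelial cells was 0.29. The cause was not tested. The leading class changed for 2 genes with at least 10000 UMIs in Cre+ replicate 4, 5 with at most 30000 UMIs and 10 with the stricter gate, which then put Cxcl1 in macrophages and Ccl2 in fibroblasts. Under the stricter gate pericytes had 19, 18, 14 and 7 cells, below the bound of 20 in every library. The class therefore had no level there and could not lead Cxcl1, so that change shows no shift of source. Neutrophils were shallow (medians of 3567 to 3849 UMIs) and numbered 31 in Cre+ replicate 2, which limits their values.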
